A study of Mus musculus with 13 samples.

Results

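The genes described here mark T cells, natural killer (NK) cells and B cells. They are 35 genes, taken by symbol from the 21100 genes of the count table, and all 35 had a value in each of 13 tumors, as did 16687 genes of the table. The study set basal cell carcinoma (BCC) tumors of genetically engineered mice (GEM-BCC) beside tumors grown from transplanted BCC cells (Tp-BCC), and the comparison of these models asks here how much lymphocyte RNA the tumors of each contained. The 9 GEM-BCC tumors grew within the dermis of 7 female Ptch1+/- K14-CreER2 p53fl/fl mice (K14-CreERT2 in the paper). These mice had received 3 intraperitoneal injections of 300 µg tamoxifen and 1 X-ray dose of 4 Gy. The 4 Tp-BCC tumors grew under the skin of the right flank in 4 female Ptch1+/- p53fl/fl mice, each inoculated with 2000000 BCC cells. The mice of both models thus carried 1 disrupted Ptch1 allele and floxed p53 alleles. Cre recombinase, driven by the keratin 14 promoter and active in basal keratinocytes, was carried by the GEM-BCC mice and not by the hosts of the transplants. The mice were immunocompetent, so that lymphocytes in a tumor could come from the animal that bore it. All Tp-BCC tumors descended from 1 GEM-BCC tumor by passaging in mice and represent that parental tumor alone.

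Poly(A) RNA was sequenced with 1 library per tumor. GEM2 and GEM3 grew in mouse M2, GEM7 and GEM8 in mouse M6, and every other tumor in a mouse of its own. Total expected counts ranged from 28075317 to 32629102 for GEM-BCC and from 15388027 to 17494912 for Tp-BCC, a ratio of medians of 1.93. Counts of 3 or fewer in a library were treated as the floor of measurement, which corresponded to 0.0857 to 0.109 CPM (counts scaled by TMM-adjusted library total) for GEM-BCC and 0.177 to 0.214 CPM for Tp-BCC libraries. For some genes with few counts in a model, counts were pooled over its libraries and their ratio is given with a counting interval. This interval rests on those few counts. No fold is given where every tumor of both models was at or under the floor, and a fold against a model at 0 in every tumor is a bound computed at the floor. The GEM-BCC libraries belonged to batch 1 and the Tp-BCC libraries to batch 2, so batch and model cannot be told apart. The label was checked with basal epithelial keratins. Krt5 ranged from 4679 to 10690 CPM for GEM-BCC and from 3725 to 10340 CPM for Tp-BCC, so RNA of basal epithelium was abundant in all 13 libraries. Krt17, a keratin of hair follicle epithelium, averaged 2772 CPM for GEM-BCC and 4038 CPM for Tp-BCC, and Krt14, the partner of Krt5, 2599 and 1702 CPM. Of 7 tumor epithelium genes (with Trp63, Epcam, Gli1 and Ptch1), all were tested. In edgeR 0 passed an adjusted p of 0.05, beside 19.4% of all tested genes, with 3 at an unadjusted p under 0.05. In DESeq2, 1 passed. The keratins moved with the libraries, and Krt14 passed in edgeR without TP2 and TP4 (-1.40) and after GC correction (-1.03), Krt17 without TP1 and TP3 (1.01).

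T cells recognize antigen through a receptor whose variable chains are held by the CD3 chains (Cd3d, Cd3e, Cd3g) and the zeta chain (Cd247). On binding, the kinase Lck phosphorylates these chains, the kinase Zap70 docks on them, and Zap70 phosphorylates the adaptor Lat, which passes the signal on. NK cells kill without such a receptor and share with cytotoxic T cells the granule proteins perforin and granzymes, while B cells signal through Cd79a and Cd79b beneath their immunoglobulin receptor and mature into antibody-secreting plasma cells. Mouse skin normally contains resident T cells of several kinds, and tumors of the skin can hold few or many lymphocytes.

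Some libraries stood apart before any gene was compared. In each tumor, the deviation of every tested gene from its mean log2 CPM was set against the GC content of its transcripts (14148 of 14390 tested genes had a GC value). Spearman's rho across genes was 0.594 in TP2 and 0.589 in TP4, against -0.389 in TP1 and -0.473 in TP3. Thus GC-rich genes read high in TP2 and TP4 and low in TP1 and TP3. For GEM-BCC, rho was 0.365 in GEM1 and lay between -0.31 and -0.15 in the 8 remaining tumors. Genes are not independent replicates, and no p-value was attached to these values. The log2 fold changes of the tested lymphocyte genes are therefore given also without TP2 and TP4, without TP1 and TP3, and after correction for the GC trend. For genes of the other lists, the alternatives that changed whether a gene passed are named.

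**Figure D1:**
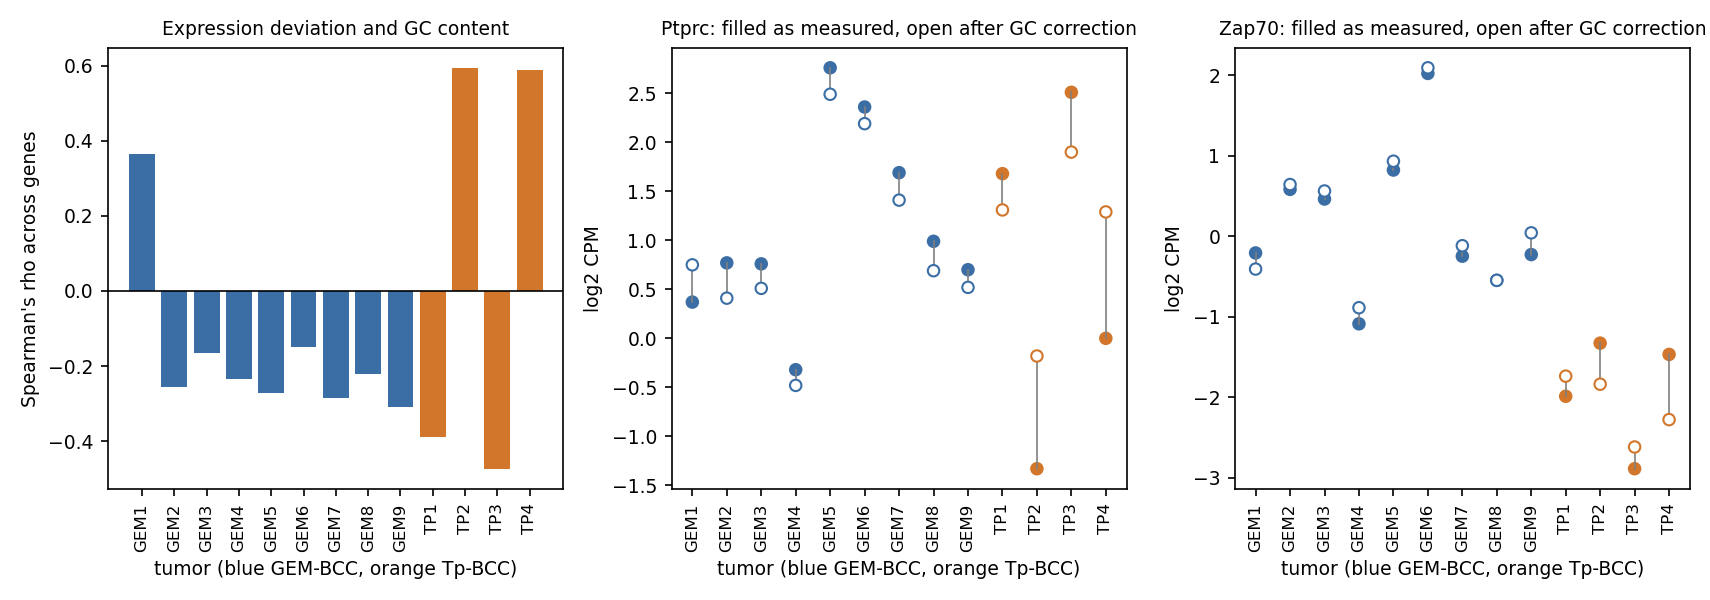
Left, Spearman's rho across 14148 genes between GC content and the deviation of log2 CPM from the gene's mean, as a bar for each tumor (blue GEM-BCC, orange Tp-BCC). Middle and right, log2 CPM of Ptprc and Zap70 in each tumor, as measured (filled points) and after GC correction (open points). In Ptprc the correction moved TP2 from -1.33 to -0.18 and TP3 from 2.51 to 1.90, while all 4 Tp-BCC points of Zap70 lay below every GEM-BCC point both ways.

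Lymphocyte marker RNA was scarce in most tumors of both models. Of the 35 genes, 5 were at or under the floor in every tumor and 10 reached 10 counts in at least 4 tumors and were tested. The 20 others exceeded the floor in at least 1 tumor but were too low for a test. Among the 10, the kinase gene Zap70 alone passed an adjusted p of 0.05 in edgeR, and it was also called (absolute log2 fold change above 2), as lower in Tp-BCC. Across all 14390 tested genes, 19.4% passed the adjusted p and 5.57% were called, with 339 calls toward higher and 462 toward lower values in Tp-BCC. This balance depended on the libraries and the filter, with 243 and 235 without TP2 and TP4, 323 and 1527 without TP1 and TP3, and 529 and 484 without a filter. The median log2 fold change of all tested genes was -0.03. Of the 10, Cd247, Cd5, Cd28 and Zap70 reached 10 counts in no Tp-BCC tumor and entered the test through GEM-BCC tumors alone, so no count or median over the tested genes is read as a difference between the models. In bulk RNA, fewer cells of a type and less RNA per cell cannot be told apart.

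The GEM-BCC tumors also differed among themselves. GEM5, GEM6 and GEM7 had the 3 highest CPM of the 9 GEM-BCC tumors in 14 of the 35 genes, and GEM5 was the highest of them in 19. These 3 tumors were singled out after their values had been seen, and the order was not tested. Among all tested genes the same 3 tumors came first in 1.34%, and among the tested lymphocyte genes in 3 of 10 (Ptprc, Cd5 and Cd28). GEM5 had 28 and GEM6 had 26 of the 35 genes over the floor, GEM7 had 22, and the other 6 GEM-BCC tumors 8 to 14. The Tp-BCC tumors had 10 to 13 genes over their higher floor.

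**Figure D2:**
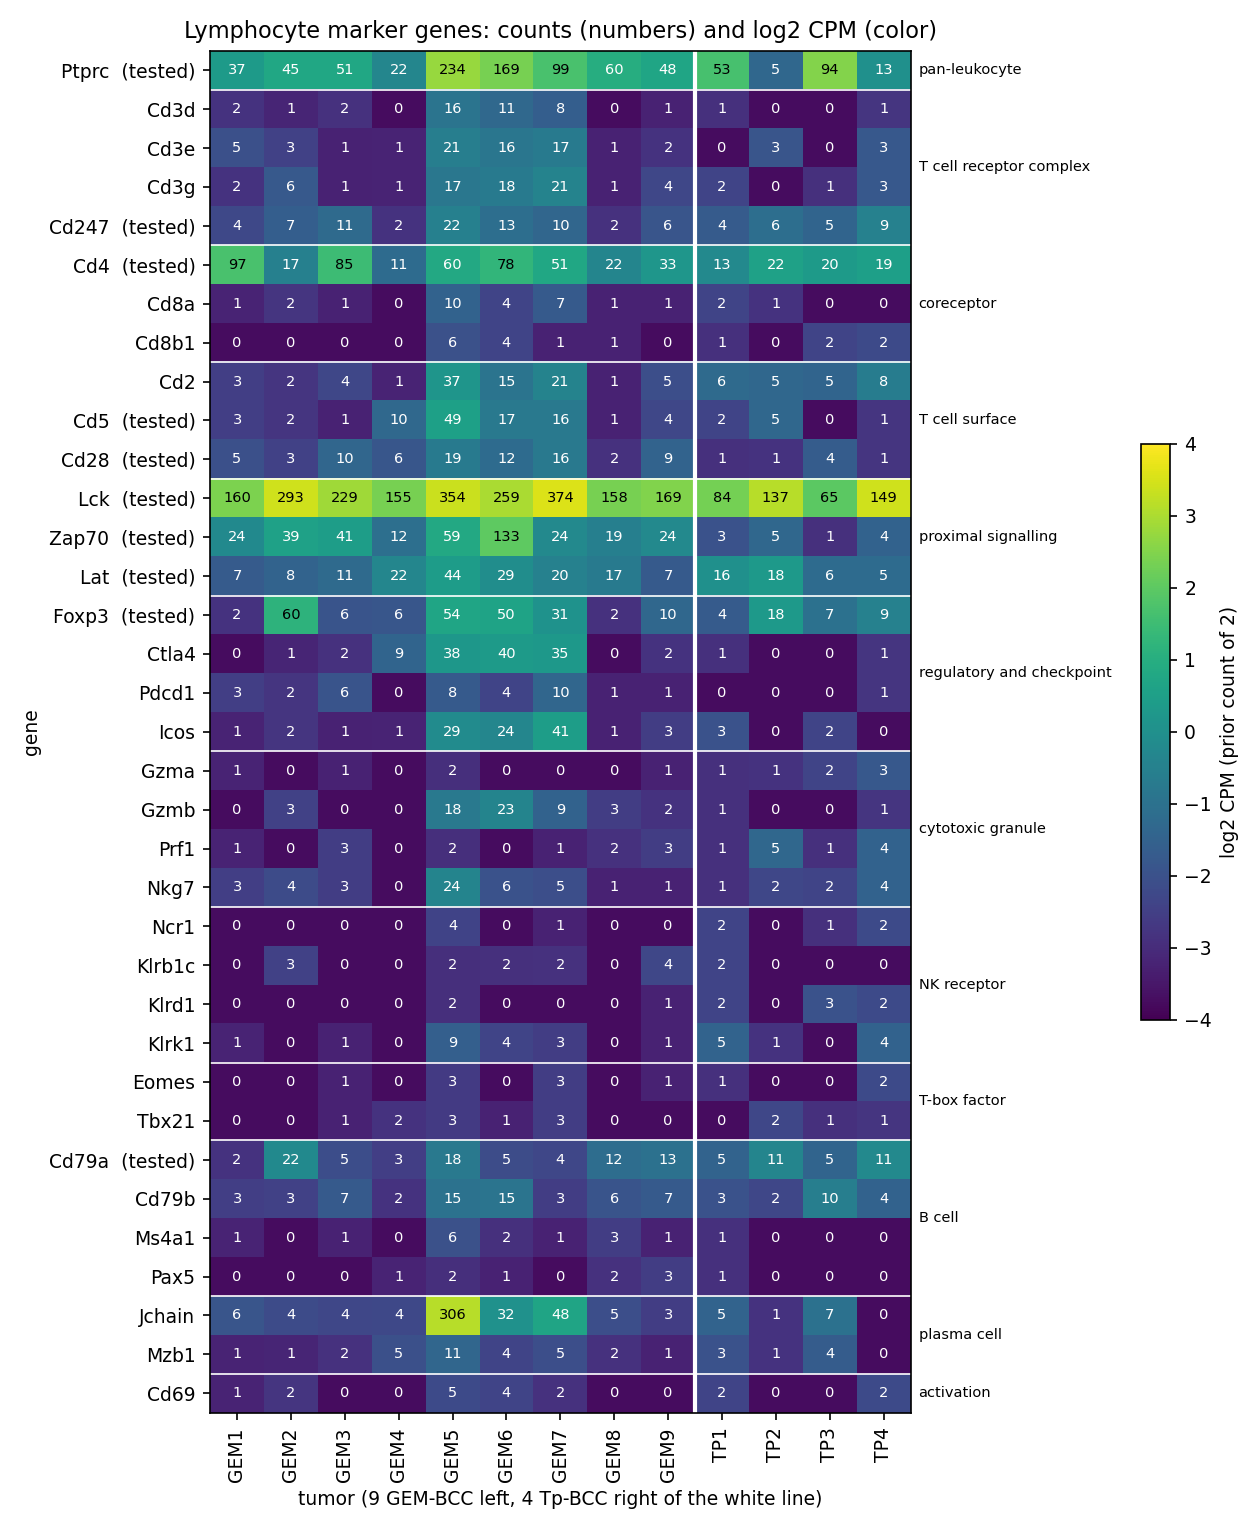
Counts (numbers) and log2 CPM (color, prior count of 2) of the 35 lymphocyte marker genes in 9 GEM-BCC and 4 Tp-BCC tumors, ordered by role, with the 10 tested genes marked. Colors compare tumors within a gene, since gene length was not corrected. GEM5, GEM6 and GEM7 have the 3 highest values among the GEM-BCC tumors in 14 genes, such as Cd3e, Ctla4 and Icos, and the NK receptor and T-box genes hold at most 9 counts in any tumor.

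Ptprc encodes CD45, the phosphatase on the surface of all leukocytes, and so covers myeloid cells as well as lymphocytes. It ranged from 22 to 234 counts in GEM-BCC tumors, with a median of 51, and was 53, 5, 94 and 13 in TP1 to TP4. GEM5 was highest and GEM4 lowest, and the models overlapped. Its log2 fold change was -0.06 (Tp-BCC over GEM-BCC, SE 0.67, edgeR adjusted p = 0.957).

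The Tp-BCC values of Ptprc split by library. TP2 and TP4 had 0.321 and 0.928 CPM, TP1 and TP3 had 3.12 and 5.63 CPM. Ptprc transcripts have 42.7% GC, a value that 8.8% of tested genes with a GC value fall below, and this split followed the GC trend of the libraries. After correction the 4 tumors stood at 1.31, -0.18, 1.90 and 1.29 log2 CPM, against a GEM-BCC mean of 0.94 ± 0.93 (SD, n = 9). The sign of the fold change depended on the libraries used, with 0.72 without TP2 and TP4 (SE 0.68, edgeR adjusted p = 0.528) and -2.06 without TP1 and TP3, and adjusted p of 0.0756 to 0.984 over all alternatives. It was also above 0 after GC correction (0.03) and without 1 of GEM5 (0.25), GEM6 (0.11), TP2 (0.26) or TP4 (0.18). A difference in CD45 RNA between the models was thus not measurable within this spread.

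The genes of the CD3 complex were read mainly from 3 GEM-BCC tumors. Cd3e had 21 counts in GEM5, 16 in GEM6 and 17 in GEM7, and 1 to 5 in the other 6 GEM-BCC tumors. Tp-BCC tumors had 0, 3, 0 and 3 counts of Cd3e. Cd3g gave nearly the same picture, with 17, 18 and 21 counts in GEM5, GEM6 and GEM7, 1 to 6 in the other GEM-BCC tumors and at most 3 in Tp-BCC. Cd3d reached 16, 11 and 8 counts in these tumors and no more than 2 elsewhere. None of the 3 chains reached 10 counts in 4 tumors, so none was tested. Pooled over all libraries of a model, from 67 counts in GEM-BCC and 6 in Tp-BCC, the ratio of Cd3e counts per total counts was 2.63, with a 95% interval of 1.15 to 7.43 that covers counting error only and not the spread between tumors. In CPM, the other 6 GEM-BCC tumors lay inside the range of the Tp-BCC tumors for Cd3e.

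The zeta chain gene Cd247 did not follow this split fully. It had 22, 13 and 10 counts in GEM5, GEM6 and GEM7, but also 11 in GEM3 and 4 to 9 in the Tp-BCC tumors, which at their lower depth was 0.235 to 0.642 CPM against a GEM-BCC median of 0.254 CPM. Its log2 fold change was 0.53 (SE 0.58, edgeR adjusted p = 0.544) and was -0.01 without TP2 and TP4, 0.93 without TP1 and TP3 and 1.25 after GC correction. Like Cd5, Cd28 and Zap70, it entered the test through GEM-BCC tumors alone. NK cells also use this chain.

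The promoters of the CD3 genes and of Lck are shown because the CD3 genes were counted mainly in the same 3 tumors and Lck in all 13. RefSeq entries (GRCm38.p6, a build other than that of the counts) were found for 25 of the 35 genes, 31 starts in all. No entry was used for Cd4, Cd8b1, Cd2, Cd28, Icos, Klrd1, Cd79b, Ms4a1, Mzb1 and Cd69. Cd3d and Cd3g are transcribed in opposite directions from starts 1355 bases apart, and Lck has 2 starts 15269 bases apart. Each line gives the 250 bases before a start, 5′ to 3′ on the strand of the gene. Capitals mark matches, on either strand, to motifs of transcription factor families that act in lymphocytes. The first motif, TGTGGT, is the core of sites bound by RUNX factors. The next, AGGAAG, holds the core bound by ETS factors. The motif AGATAA is a form of the GATA site, and the last one, CAGGTG, is an E-box of helix-loop-helix and zinc finger proteins. Matches of different motifs did not overlap in these windows.
Cd3g, chr9:44980432-44980681, minus strand: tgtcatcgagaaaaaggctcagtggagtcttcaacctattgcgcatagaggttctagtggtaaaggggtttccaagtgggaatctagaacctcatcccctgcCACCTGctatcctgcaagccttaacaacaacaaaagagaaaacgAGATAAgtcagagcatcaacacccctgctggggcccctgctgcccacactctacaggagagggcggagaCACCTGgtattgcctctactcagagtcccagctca
Cd3d, chr9:44981536-44981785, plus strand: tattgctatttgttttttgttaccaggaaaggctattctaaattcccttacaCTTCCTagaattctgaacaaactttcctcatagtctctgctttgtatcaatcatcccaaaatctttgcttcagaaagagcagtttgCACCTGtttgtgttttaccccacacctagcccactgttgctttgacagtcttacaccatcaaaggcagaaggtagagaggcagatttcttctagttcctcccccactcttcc
Cd3e, chr9:45009612-45009861, minus strand: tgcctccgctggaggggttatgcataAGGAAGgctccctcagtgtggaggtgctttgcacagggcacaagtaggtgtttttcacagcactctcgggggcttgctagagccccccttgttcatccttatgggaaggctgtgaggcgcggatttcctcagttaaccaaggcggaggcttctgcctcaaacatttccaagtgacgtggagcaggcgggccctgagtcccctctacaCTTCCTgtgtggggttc
Lck, upstream start, chr4:129573642-129573891, minus strand: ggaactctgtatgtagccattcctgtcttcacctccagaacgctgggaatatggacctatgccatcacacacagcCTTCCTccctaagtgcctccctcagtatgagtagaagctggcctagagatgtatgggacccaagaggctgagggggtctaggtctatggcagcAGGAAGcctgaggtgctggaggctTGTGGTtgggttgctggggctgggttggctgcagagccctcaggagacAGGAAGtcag
Lck, downstream start, chr4:129558373-129558622, minus strand: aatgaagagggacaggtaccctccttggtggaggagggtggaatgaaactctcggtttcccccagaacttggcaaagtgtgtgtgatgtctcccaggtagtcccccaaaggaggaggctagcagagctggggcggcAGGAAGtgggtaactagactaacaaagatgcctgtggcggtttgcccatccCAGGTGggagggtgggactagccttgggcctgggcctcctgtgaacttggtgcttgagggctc

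Cd3d had 1 AGGAAG match, Cd3e had 2 and Cd3g 0. CAGGTG matched 1 time in Cd3d, 2 times in Cd3g and 0 times in Cd3e, and AGATAA 1 time in Cd3g. The upstream Lck window had 3 AGGAAG matches and 1 TGTGGT match, the downstream window 1 AGGAAG and 1 CAGGTG match. AGGAAG occurred in 29.5% of the 32851 RefSeq windows of this length and in 19 of the 31 windows of the lymphocyte genes. TGTGGT occurred in 14.0% and in 10 of 31, CAGGTG in 17.2% and in 12 of 31, and AGATAA in 9.99% and in 3 of 31. The windows of Ncr1 overlap each other, as do those of Ptprc, so a match that they share was counted in each. A match describes the letters of a window and does not show a bound site.

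Of the coreceptors, Cd4 was present in all tumors and Cd8a and Cd8b1 were nearly absent. Cd4, which docks the receptor on class II MHC, had 11 to 97 counts in GEM-BCC (median 51) and 13, 22, 20 and 19 in TP1 to TP4. Its 2 highest values were not in the tumors rich in CD3 RNA. GEM1 and GEM3 had 97 and 85 counts of Cd4 with 5 and 1 counts of Cd3e, and GEM6 had 78 with 16. Mouse macrophages and dendritic cells can also transcribe Cd4, and the summed level of 26 myeloid genes was 344 CPM in both GEM1 and GEM3, within a GEM-BCC range of 107 to 566 CPM. The part of such cells in the Cd4 counts was not tested. The log2 fold change of Cd4 was -0.43 (SE 0.54, edgeR adjusted p = 0.601), and it was -0.70 without TP2 and TP4, -0.19 without TP1 and TP3 and -0.45 after GC correction. Cd8a, the coreceptor chain of cytotoxic T cells, reached 10 counts in GEM5, 4 in GEM6 and 7 in GEM7, and 0 to 2 in every other tumor. Cd8b1 reached 6 counts at most, in GEM5.

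Of the surface genes of T cells, 3 were highest in the same GEM-BCC tumors. Cd5, a restraining receptor of T cells, had 49, 17 and 16 counts in GEM5, GEM6 and GEM7, 10 in GEM4 and 1 to 4 in the other 5 GEM-BCC tumors, against 2, 5, 0 and 1 in TP1 to TP4. Its log2 fold change was -1.42 (SE 1.06, edgeR adjusted p = 0.36) and depended on TP2, without which it was -2.44. It was -2.49 without TP2 and TP4, -0.79 without TP1 and TP3 and -1.75 after GC correction, and passed in none of 18 alternatives. Cd28, the main costimulatory receptor, had 2 to 19 counts in GEM-BCC (median 9) and 1, 1, 4 and 1 in Tp-BCC tumors. Its log2 fold change was -1.34 (SE 0.68, edgeR adjusted p = 0.175), with adjusted p of 0.0818 to 0.534 over the alternatives. It was -0.93 without TP2 and TP4, -2.0 without TP1 and TP3 and -1.07 after GC correction, and TP3 alone moved it to -2.06 when left out. Cd2, an adhesion receptor of T and NK cells, had 37, 15 and 21 counts in GEM5, GEM6 and GEM7, 1 to 5 in the other GEM-BCC tumors, and 6, 5, 5 and 8 in TP1 to TP4. In CPM this put every Tp-BCC tumor (0.299 to 0.571 CPM) above the GEM-BCC median of 0.127 CPM, and TP4 above GEM6.

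Zap70 passed the test between the models, but with at most 5 counts in Tp-BCC it entered the test only through the GEM-BCC tumors, where it is high, which favors a difference in that direction. It had 12 to 133 counts in GEM-BCC tumors, with a median of 24, and 3, 5, 1 and 4 in TP1 to TP4. The models did not overlap in CPM (0.396 to 3.98 against 0.0598 to 0.321), which was the case for 9.95% of all tested genes in either direction. Its log2 fold change was -2.61 (SE 0.70, edgeR adjusted p = 0.0178), and 4 of 4 Tp-BCC tumors lay below all 9 GEM-BCC tumors. After GC correction it was -2.98 (SE 0.68, edgeR adjusted p = 0.00548). With only 2 Tp-BCC libraries the call was lost, at -3.42 without TP2 and TP4 (edgeR adjusted p = 0.0575) and -2.08 without TP1 and TP3 (0.0787), in a range of 0.00181 to 0.0787 over all alternatives. Under a stricter reading of the filter Zap70 was not tested, since its Tp-BCC counts were too low.

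Zap70 was counted also in tumors with little CD3 RNA. GEM2 and GEM3 had 39 and 41 counts with 3 and 1 counts of Cd3e, and GEM7 had 24 counts with 17 of Cd3e. GEM6 held by far the most, 133 counts, and without GEM6 the log2 fold change was -2.19 (edgeR adjusted p = 0.0186). NK cells use the same kinase, and the 4 NK receptor genes summed to 3, 1 and 6 counts in GEM2, GEM3 and GEM6. Which cells transcribed Zap70 was not measured.

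Lck, the kinase that acts before Zap70, overlapped between the models in CPM. It had 155 to 374 counts in GEM-BCC (median 229) and 84, 137, 65 and 149 in Tp-BCC tumors, or 7.61 ± 2.67 CPM (SD, n = 9) against 7.07 ± 3.18 CPM (SD, n = 4). The log2 fold change of Lck was -0.11 (SE 0.34, edgeR adjusted p = 0.851). It was -0.79 without TP2 and TP4 and -0.37 after GC correction, and the sign turned in 3 alternatives, to 0.36 without TP1 and TP3, 0.03 without TP1 and 0.10 without TP3. Among the GEM-BCC tumors, GEM7 (11.9 CPM), GEM2 (10.6 CPM) and GEM5 (10.1 CPM) had the most Lck, followed by GEM6. Lck and Cd4 were the 2 genes with at least 10 counts in all 13 tumors. GEM2 had 293 counts of Lck with 3 of Cd3e and 6 of Cd3g, and TP3 had 65 with 0 and 1. Lat, the adaptor, had 7 to 44 counts in GEM-BCC (median 17) and 16, 18, 6 and 5 in Tp-BCC tumors, with a log2 fold change of 0.30 (SE 0.54, edgeR adjusted p = 0.719) that became -0.07 without TP2. This value was 0.18 without TP2 and TP4, 0.42 without TP1 and TP3 and 0.05 after GC correction. It was highest in GEM5 and overlapped between the models.

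**Figure D3:**
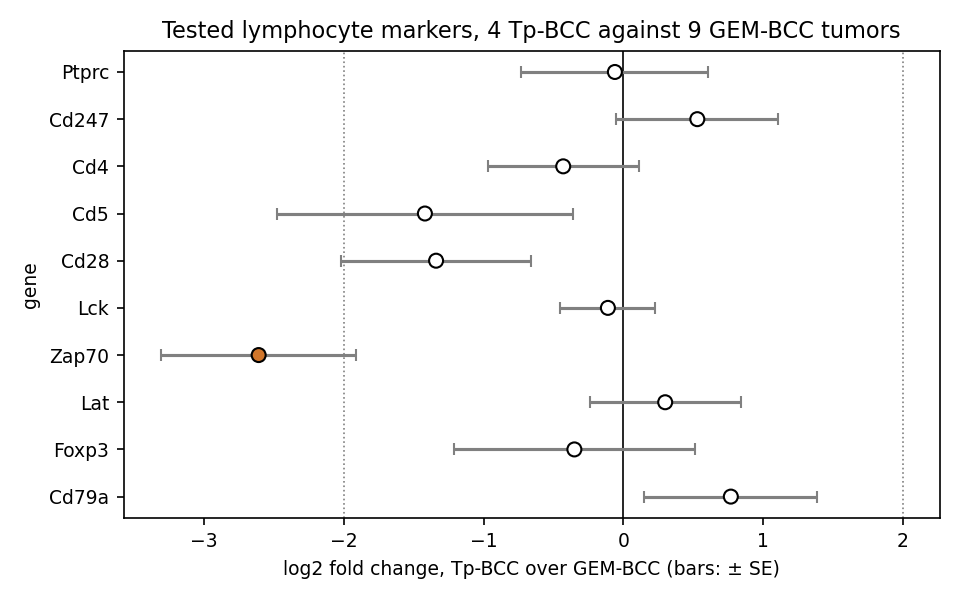
Log2 fold change (Tp-BCC over GEM-BCC, with bars of ± SE) of the 10 lymphocyte genes with enough counts for a test, from edgeR on 4 Tp-BCC and 9 GEM-BCC tumors. The filled point is Zap70, at -2.61, the only one with an adjusted p under 0.05; dotted lines mark log2 fold changes of -2 and 2.

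Genes of regulatory and activated T cells also separated the GEM-BCC tumors. Ctla4, an inhibitory receptor carried by regulatory T cells, had 38 counts in GEM5, 40 in GEM6 and 35 in GEM7, 9 in GEM4 and 0 to 2 in the other 5 GEM-BCC tumors. Tp-BCC tumors had 1, 0, 0 and 1. The pooled ratio of GEM-BCC to Tp-BCC was 15, with a 95% counting interval of 4.06 to 125, from 127 and 2 counts. Icos, a costimulatory receptor induced on activated T cells, had 29, 24 and 41 counts in the same 3 tumors, 1 to 3 in the other GEM-BCC tumors and 3, 0, 2 and 0 in Tp-BCC. Pdcd1, which encodes the checkpoint receptor PD-1, peaked at 10 counts in GEM7 and had 1 count in TP4 and 0 in the other Tp-BCC tumors. These 3 genes reached 10 counts in at most 3 tumors and were not tested, and more than 3 Ctla4 counts were read in 4 of 9 GEM-BCC and 0 of 4 Tp-BCC tumors.

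Foxp3, the transcription factor of regulatory T cells, was higher in a further tumor. GEM2 had 60 counts, GEM5, GEM6 and GEM7 had 54, 50 and 31, and the other 5 GEM-BCC tumors 2 to 10. Tp-BCC tumors had 4, 18, 7 and 9 counts, or 0.235 to 1.16 CPM, inside the GEM-BCC range of 0.0638 to 2.18 CPM. GEM2 had 1 count of Ctla4 and 2 of Icos, both at or under the floor. The log2 fold change of Foxp3 was -0.35 (SE 0.86, edgeR adjusted p = 0.8) and was -1.26 without TP2 and TP4, 0.21 without TP1 and TP3 and -0.68 after GC correction.

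Cytotoxic granule genes were low throughout. Gzmb, which encodes granzyme B, had 18, 23 and 9 counts in GEM5, GEM6 and GEM7, 0 to 3 in the other GEM-BCC tumors and 1, 0, 0 and 1 in Tp-BCC tumors (pooled ratio 6.84, 95% counting interval 1.81 to 57.8, from 58 and 2 counts). Nkg7, a granule membrane protein of NK and cytotoxic T cells, reached 24 counts in GEM5 and at most 6 elsewhere. Prf1, which encodes perforin, had 0 to 3 counts in GEM-BCC and 1, 5, 1 and 4 in Tp-BCC tumors (pooled ratio 0.257, 95% counting interval 0.104 to 0.643). Its GEM-BCC values were all at or under the floor and overlapped with those of TP1 and TP3, so no difference between the models is read from it. Gzma never exceeded 3 counts, with 5 counts in all GEM-BCC and 7 in all Tp-BCC tumors at their lower depth, and no fold is given since every tumor of both models was at or under the floor. GEM6, with the most Gzmb, had 0 counts of Prf1 and 0 of Gzma.

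NK cell genes were at the limit of detection in both models. Of the receptors, Klrk1 (NKG2D) reached 9 counts in GEM5 and 5 in TP1, Klrb1c (NK1.1) 4 in GEM9, Ncr1 (NKp46) 4 in GEM5 and Klrd1 (CD94) 3 in TP3. Klrd1 totalled 3 counts in GEM-BCC and 7 in Tp-BCC tumors, all at or under the floor. The T-box factors Eomes and Tbx21, which drive the NK and cytotoxic programs, had at most 3 counts in any tumor. Several Klr genes are close relatives in sequence, and how reads were shared among them could not be checked in the table. Neither group allows a statement on NK cells beyond this, since 3 counts in a Tp-BCC library already stand for up to 0.214 CPM. Cd69, an early activation marker of lymphocytes, had at most 5 counts, in GEM5.

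B cell genes were low in every tumor. Cd79a had 2 to 22 counts in GEM-BCC (median 5) and 5, 11, 5 and 11 in Tp-BCC tumors, with a log2 fold change of 0.77 (SE 0.62, edgeR adjusted p = 0.396) that became -0.02 without TP2 and TP4, 1.3 without TP1 and TP3 and 0.48 after GC correction. Its pooled ratio of GEM-BCC to Tp-BCC was 0.619 (95% counting interval 0.407 to 0.961). Its highest count was in GEM2, and GEM6 and GEM7 had 5 and 4. Cd79b had 15 counts in GEM5, 15 in GEM6 and 10 in TP3, and 2 to 7 in the other tumors (pooled ratio 0.757, 95% counting interval 0.446 to 1.34). Ms4a1, which encodes CD20, reached 6 counts in GEM5 and had at most 1 in a Tp-BCC tumor. Its pooled ratio was 3.54 (95% counting interval 0.544 to 149), from 15 and 1 counts. The B lineage factor Pax5 had at most 3 counts in any tumor.

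Of the plasma cell genes, Jchain stood out in GEM5. Jchain, which encodes the chain that joins secreted IgM and IgA, had 306 counts in GEM5, 32 in GEM6, 48 in GEM7 and 3 to 6 in the other GEM-BCC tumors. Tp-BCC tumors had 5, 1, 7 and 0. GEM5 alone thus held most of the 412 GEM-BCC counts. Mzb1, a chaperone of immunoglobulin assembly, was also highest in GEM5, at 11 counts, and had 0 to 5 counts in every other tumor. In CPM its lead was small, with 0.314 CPM in GEM5 and 0.239 CPM in TP3. The immunoglobulin and T cell receptor constant region genes placed on the context lists were not in the table and were not analysed here.

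Tumors that shared a mouse also differed from each other. In mouse M6, GEM7 had 46 counts of the 3 CD3 chains and GEM8 had 2, a ratio of 22.9 after scaling (95% counting interval 5.99 to 195). Icos had 41 and 1 counts in this pair and Ctla4 35 and 0, Foxp3 31 and 2, and Jchain 48 and 5. Zap70 (24 and 19) and Lat (20 and 17) were alike within counting error, with ratios of 1.26 (0.661 to 2.43) and 1.17 (0.583 to 2.38), while Lck was higher in GEM7 (374 and 158, ratio 2.36, 1.95 to 2.86). B cell genes went the other way, with 8 counts summed over 4 genes in GEM7 and 23 in GEM8 (ratio 0.347, 0.134 to 0.802). Mast cell genes were higher in GEM7 (ratio 3.16, 2.13 to 4.8) and myeloid genes nearly equal (ratio 1.08, 1.04 to 1.12). Intervals in this comparison describe these libraries and their counting error only. In mouse M2, neither tumor was rich in CD3 RNA (10 and 4 counts in GEM2 and GEM3). GEM2 exceeded GEM3 in Foxp3 (60 and 6 counts, ratio 11.5, 4.98 to 32.5) and in Cd79a (22 and 5, ratio 5.05, 1.87 to 17.1), while Cd4 was lower (17 and 85, ratio 0.23, 0.128 to 0.39). Cd79b did not follow Cd79a (3 and 7 counts, ratio 0.492, 0.0822 to 2.16), and the 4 B cell genes summed to 25 and 13 counts (ratio 2.21, 1.09 to 4.7). The summed myeloid genes (176 and 344 CPM, ratio 0.51) and mast cell genes (ratio 0.176, 0.123 to 0.248) were also lower in GEM2, and Lck was higher (ratio 1.47, 1.23 to 1.75). CD45 RNA was the same within counting error in the M2 pair (45 and 51 counts of Ptprc), and 1.64 times higher in GEM7 than in GEM8 (1.18 to 2.3).

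**Figure D4:**
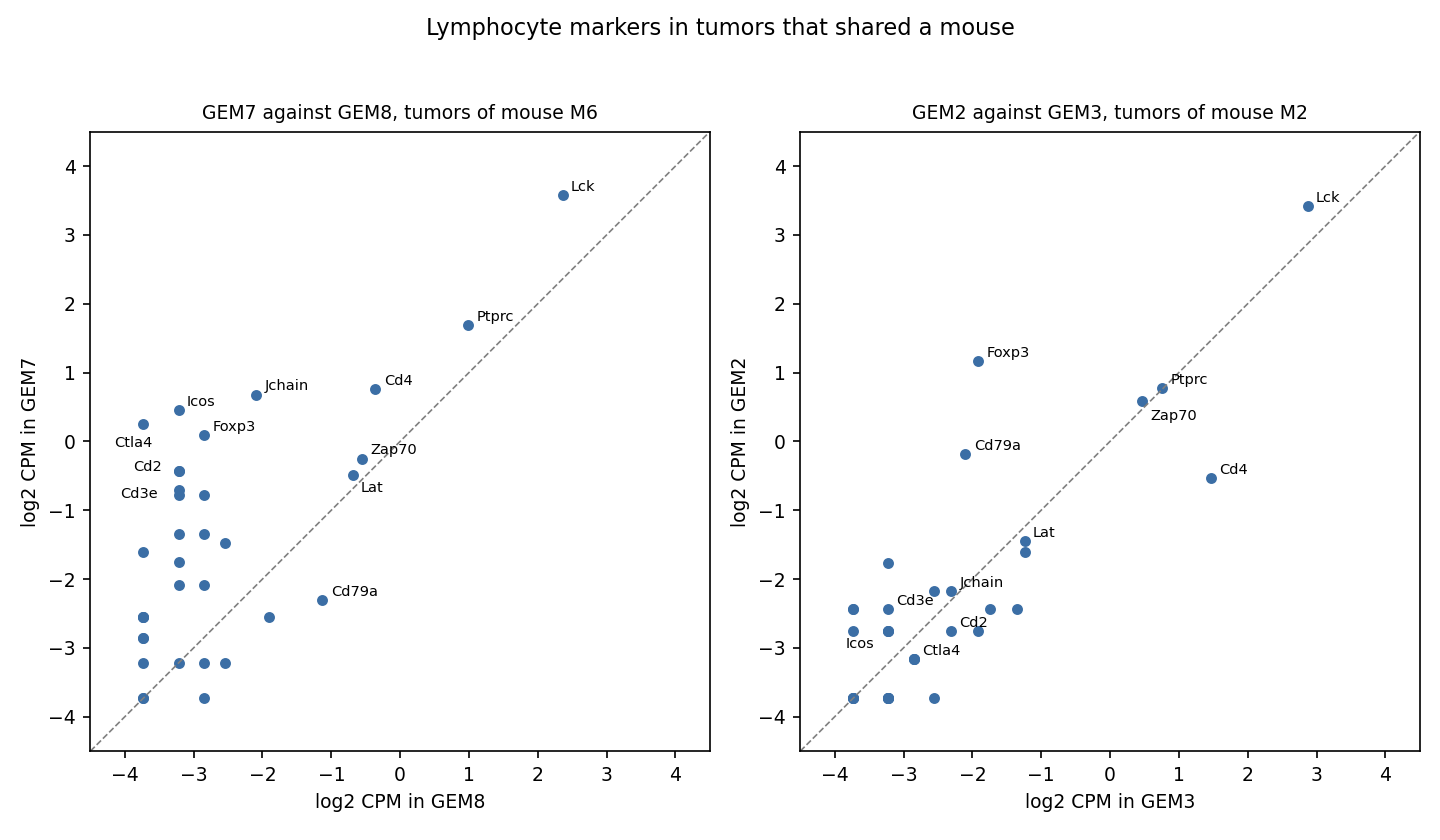
Log2 CPM (prior count of 2) of the 35 lymphocyte genes in the tumors that shared mouse M6 (left, GEM7 against GEM8) and mouse M2 (right, GEM2 against GEM3), with the line of equal values dashed. Icos, with 41 against 1 counts, and Cd3e, with 17 against 1, lie far above the line in M6, whereas in M2 only Foxp3, Cd79a and Cd4 among the labelled genes lie far from it.

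The other leukocyte lists were set beside these genes. Of 26 myeloid genes 24 were tested, and 2 were higher (Zbtb46 and Cd68) and 2 lower (S100a8 and S100a9) in Tp-BCC at an adjusted p under 0.05, beside 19.4% of all tested genes. Their summed level was 278 ± 141 CPM in GEM-BCC (SD, n = 9) and 387 ± 139 CPM in Tp-BCC tumors (SD, n = 4), and Lyz2 was the most abundant gene. Of the tumors rich in CD3 RNA, GEM6 (566 CPM) and GEM5 (365 CPM) had the highest myeloid sums of the GEM-BCC tumors. GEM5 was just ahead of GEM1 and GEM3 at 344 CPM, and GEM7 had 189 CPM. Cd68, a lysosomal protein of macrophages, had a log2 fold change of 1.31 (SE 0.39, edgeR adjusted p = 0.0292), and Zbtb46, a factor of classical dendritic cells, 2.22 (SE 0.39, edgeR adjusted p = 0.0013). S100a8 and S100a9, the calprotectin genes of neutrophils that keratinocytes can also express, fell by 3.60 (SE 1.09, edgeR adjusted p = 0.0313) and fell by 3.27 (SE 1.06, edgeR adjusted p = 0.0415) on the log2 scale, and were highest in GEM7 (98 and 106 counts). With at most 3 counts in any Tp-BCC tumor, S100a8 and S100a9 entered the test through GEM-BCC tumors alone. They did not pass without TP2 and TP4, without TP1 and TP3 or after GC correction, nor when 1 of TP1, TP2 or TP3 was left out. S100a8 also failed without TP4, and S100a9 without GEM2, GEM7 or GEM8 and with counts summed per mouse, with log2 fold changes of -4.24 to -2.99 and of -4.62 to -2.55 over all alternatives. Cd68 did not pass without TP2 and TP4 (0.87), nor with either of them left out alone (1.06 to 1.45 over fits without 1 tumor), whereas Zbtb46 passed in all 23 alternatives. Csf1r and C1qa, macrophage genes, did not pass the test (adjusted p of 0.607 and 0.506 in edgeR). Of 8 mast cell genes, 7 had values and 5 were tested, and 0 passed in edgeR, with 1 at an unadjusted p under 0.05 and 1 passing in DESeq2. They summed to 3.09 ± 2.64 CPM in GEM-BCC and 7.97 ± 3.22 CPM in Tp-BCC tumors. The 3 with the highest CPM, Mcpt4, Cma1 and Cpa3, had log2 fold changes of 1.32, 1.40 and 2.11 (edgeR adjusted p of 0.18, 0.16 and 0.0514). Cpa3 passed after GC correction (2.83), in DESeq2 and without GEM3, GEM5 or TP3, with adjusted p of 0.0107 to 0.148 over all alternatives. The part of these cells in the lymphocyte values was not tested.

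**Figure D5:**
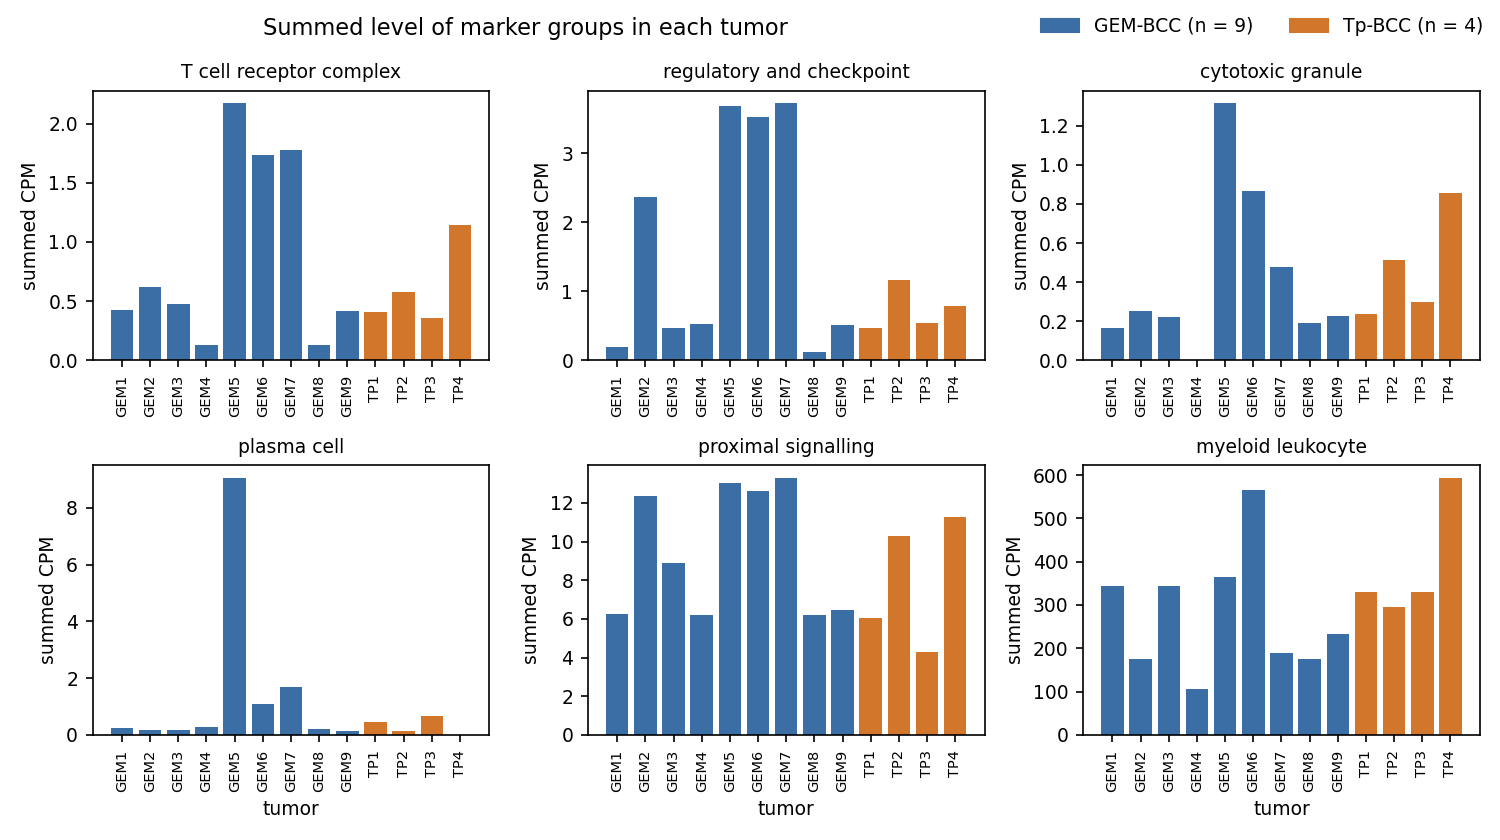
Summed CPM of 5 groups of lymphocyte genes and of 26 myeloid genes in each tumor (bars from 0; blue GEM-BCC, orange Tp-BCC; each panel has its own scale). GEM5, GEM6 and GEM7 stand over the other tumors in the T cell receptor complex (2.17, 1.73 and 1.78 CPM, against at most 1.14 CPM elsewhere), GEM5 in the plasma cell genes (9.06 CPM), and the same 3 are the highest in proximal signalling, with GEM2 and TP4 next at 12.4 and 11.3 CPM.

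A wider list of genes known from T cells was also examined. Of 51 listed genes 44 had values and 28 were tested. In edgeR 3 were higher and 1 lower in Tp-BCC at an adjusted p under 0.05, beside 19.4% of all tested genes. An unadjusted p was under 0.05 for 12 of the tested genes, and 6 passed in DESeq2. Lef1 and Tcf7, transcription factors of Wnt signalling in T cells and also in hair follicle epithelium, rose by 2.99 (SE 0.30, edgeR adjusted p = 1.01e-05) and 2.57 (SE 0.29, edgeR adjusted p = 2.4e-05) on the log2 scale. Tcf7 was at 21.5 ± 8.01 CPM in GEM-BCC (SD, n = 9) and 128 ± 42.9 CPM in Tp-BCC tumors (SD, n = 4). Which cells transcribed these genes was not measured. Prkcq, a kinase of T cell activation, rose by 4.05 (SE 0.41, edgeR adjusted p = 1.01e-05), from 5 to 22 counts in GEM-BCC to 162, 92, 180 and 46 in TP1 to TP4, without overlap. Cd3e had 0, 3, 0 and 3 counts in TP1 to TP4, and which cells transcribed Prkcq was not measured. Gata3, a factor of T helper cells and of skin epithelium, fell by 1.51 (SE 0.32, edgeR adjusted p = 0.00444). These 4 genes passed in all 23 alternatives. Fyn and Bcl11b, among the highest in CPM on this list, did not pass the test (adjusted p of 0.191 and 0.936 in edgeR), although Fyn passed after GC correction (0.55, in a range of adjusted p from 0.0145 to 0.513). GEM5, GEM6 and GEM7 were the 3 highest GEM-BCC tumors in 8 of the 28 tested genes of this list, beside 1.34% of all tested genes.

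Lists for the other lymphoid lineages gave few tested genes. Of 12 genes listed for gamma-delta T cells 6 had values and 3 were tested. Skint1, an epithelial gene required for the development of epidermal gamma-delta T cells, had 0 to 30 counts in GEM-BCC and 0 in all 4 Tp-BCC tumors, so its mean was at least 1.54-fold lower in Tp-BCC, computed with 3 counts in each Tp-BCC library (edgeR adjusted p = 0.0418). It entered the test through GEM-BCC tumors alone, and did not pass without TP2 and TP4, without TP1 and TP3, or without 1 of GEM9 or any Tp-BCC tumor, with adjusted p of 0.0131 to 0.158 over the alternatives. Sox13 did not pass (edgeR adjusted p = 0.508). Of 30 genes listed for NK and innate lymphoid cells, 24 had values, 8 were at or under the floor in every tumor and 6 were tested. In edgeR 0 passed, beside 19.4% of all tested genes, and 1 had an unadjusted p under 0.05. In DESeq2, 1 passed. The 3 with the highest CPM were Rora, Itga2 and Il18r1, which were all lower in TP2 and TP4 than in TP1 and TP3 (57 and 79 against 378 and 645 counts for Rora), as Ptprc was. Without TP1 and TP3 their log2 fold changes were -2.68, -2.54 and -1.55, of which the first 2 passed in edgeR, and without TP2 and TP4 they were 0.02, 0.64 and 0.77. Rora also passed without TP3 alone (-1.50).

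Of 34 B and plasma cell genes 28 had values and 18 were tested, with 3 higher and 1 lower at an adjusted p under 0.05, beside 19.4% of all tested genes. Derl3, a factor of protein disposal from the endoplasmic reticulum found in plasma cells, had 83 to 392 counts in GEM-BCC and 1, 1, 0 and 0 in Tp-BCC tumors, a pooled ratio of 179 with a 95% counting interval of 49.6 to 1480 from 1521 and 2 counts (edgeR adjusted p = 9.21e-06). It entered the test through GEM-BCC tumors alone, where it is high, so its test has the same limit as that of Zap70. It did not follow Jchain, with 392 counts in GEM6 and 197 in GEM5. Spib, an Ets factor of B cells, rose by 4.34 on the log2 scale (SE 0.58, edgeR adjusted p = 1.57e-04), from 34 to 752 counts in GEM-BCC to 1453 to 3107 in Tp-BCC tumors, and passed in all 23 alternatives. The same Tp-BCC tumors had 5 to 11 counts of Cd79a and at most 1 count each of Ms4a1 and Pax5. Which cells transcribed the genes of this list was not measured. Ebf1 rose by 1.19 and Cd37 by 1.31, with adjusted p of 0.0104 and 0.0442 in edgeR. Ebf1 did not pass without TP1 and TP3 (0.56). Cd37 did not pass without TP2 and TP4 (0.91), after GC correction (0.99), by library size alone, with no filter, with counts summed per mouse and in 10 of 13 fits without 1 tumor (0.84 to 1.46), in a range of adjusted p from 0.0241 to 0.295. Sdc1 and Xbp1, plasma cell genes that epithelia also transcribe, did not pass (adjusted p of 0.444 and 0.41 in edgeR).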

How the data were processed

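RNA of 13 mouse tumors (9 GEM-BCC, 4 Tp-BCC) was analysed from the deposited table of RSEM expected counts per gene, which the authors made with SOAPnuke, Bowtie2 2.3.4.3 and RSEM 1.3.1 in strand-specific mode on GRCm39 transcripts, without normalization. The expected counts were rounded. Testing took genes that had values for every tumor and 10 or more counts in 4 or more of them, with edgeR 4.0.16 (TMM factors, robust quasi-likelihood F test, 2-sided, no covariate since batch equals model), with Benjamini-Hochberg adjustment over all tested genes. A call needed an adjusted p below 0.05 together with a log2 fold change beyond 2 in size. Alternatives were DESeq2 (1.42.0), its size factors, library size alone, other filters, dispersions not robust, counts summed per mouse, correction for the GC trend, a fold change threshold of 1, and leaving out tumors or pairs of libraries. CPM use TMM-scaled totals, and log2 CPM a prior count of 2. Intervals are exact binomial intervals at 95% and cover counting error only. GC content came from GENCODE vM21 transcripts. Code was tested on simulated data. No libraries were duplicates (lowest chi-square per degree of freedom between libraries, 12.6). This lowest value was that of TP1 and TP3, from different mice, and TP2 and TP4 came next at 71.0. The Tp-BCC libraries were thus closest in the same pairs that the GC trend set apart.

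Members and lists were chosen with earlier results of these data known. All 35 genes are named, and of each context list (T cell, gamma-delta T cell, NK and innate lymphoid, B and plasma cell, myeloid, mast cell, tumor epithelium) up to 6 tested genes with adjusted p under 0.05 in order of p and the 3 with the highest mean CPM. A gene that this rule would name is not reported here. Other genes of these lists are named as list members, or where they had values in 1 model alone.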

Additional observations from a re-analysis of the deposited data

Results flagged for a closer look

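Log2 CPM of the 35 genes was examined for isolated tumors in 46 groups of values, those in which at least 1 tumor was over 3 counts, and 2 stood apart from the rest of their group by a gap past Dixon's critical value at the 95% level. Cd28 in TP3 stood at -1.67 against -2.77 in the nearest other Tp-BCC tumor, a gap of 0.895 of the range among 4 tumors, from counts of 4 against 1. Ncr1 in GEM5 stood at -2.40 against -3.22 in the nearest other GEM-BCC tumor, a gap of 0.618 of the range among 9 tumors, from counts of 4 against 1. Chance singles out about 1 in 20 groups, and both values rest on 4 counts.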

How the results depend on the processing

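Batch equals model, the Tp-BCC libraries were shallower and descend from 1 tumor, and 25 of 35 genes were below the depth needed for a test. No paired analysis was possible because no mouse bore tumors of both models. The 801 genes called became 439 under the stricter reading of the filter, 478 without TP2 and TP4, 1850 without TP1 and TP3 and 1989 at an absolute log2 fold change above 1, and 594 to 853 when 1 tumor was left out. The 1 lymphocyte gene with adjusted p under 0.05, also the 1 called, became 0 in edgeR under the stricter filter (3 genes tested, Zap70 not among them, 0 at an unadjusted p under 0.05), 0 without TP2 and TP4 and 0 without TP1 and TP3 (fewer samples, 1 and 2 at an unadjusted p under 0.05), and 2 without a filter, where Klrd1 joined Zap70 with at most 3 counts in any tumor. It was 1 in each of the 13 fits that left out 1 tumor. The log2 fold change of Zap70 was -3.42 to -2.08 over 22 alternatives, and the signs of Cd4, Cd5, Cd28 and Zap70 did not change in any alternative that tested them. Signs changed for genes that passed in no fit. Without TP2 and TP4, Cd247 was at -0.01, Cd79a at -0.02 and Ptprc at 0.72. Without TP1 and TP3, Foxp3 was at 0.21 and Lck at 0.36. Leaving out 1 tumor, Lck ranged from -0.44 to 0.10 (0.03 without TP1, 0.10 without TP3), Lat from -0.07 (without TP2) to 0.54, and Ptprc from -0.84 to 0.26 (0.25 without GEM5, 0.11 without GEM6, 0.26 without TP2, 0.18 without TP4). Ptprc was at 0.03 after GC correction. The cause was not tested.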

Other observations

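Of the context genes, 10 had values in GEM-BCC tumors alone. Ubash3a, a regulator of T cell receptor signalling, had 6, 8 and 10 counts in GEM5, GEM6 and GEM7 and 0 to 3 in the other 6 tumors. The mast cell gene Tpsab1 had 17 counts in GEM3 and 0 to 6 elsewhere. Sh2d1a and Cd40lg had at most 3 counts, Il2 and Il17a at most 1, and Klrb1, Klra7, Klra8 and Gzmk had 0 counts in all 9 tumors. Klra1 had values in Tp-BCC tumors alone, with 1 count in TP1 and 0 in the other 3. How the missing values arose is not stated with the table.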
